A study of Homo sapiens with 6 samples.

Results

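The gelsolin family was represented by 7 genes of the 35819 in the deposited tables. These were SCIN (scinderin), GSN (gelsolin), VIL1 (villin), AVIL (advillin), SVIL (supervillin), CAPG (the macrophage capping protein) and FLII (flightless). They were taken by gene symbol. SCIN was chosen because its values were near 0 in the TOP3B knockout, so its levels are described here without a test. The other 6 were taken as its family and not by their values, although earlier results of these data were known by then. The cells were HT1080, a human fibrosarcoma line grown in medium with serum, and their total RNA was sequenced once ribosomal RNA had been removed. There were 3 wild-type (WT) libraries and 3 TOP3B knockout libraries of the line E2-2, made with CRISPR and a guide against exon 2 of TOP3B, which encodes a topoisomerase of DNA and RNA. A single knockout line is named, so every comparison is of this line with WT cells. The labels do not say that libraries of a group came from separate cultures, so the p-values speak only to the variation among libraries, and that variation could be technical. The series text once names HCT116 as the WT source, while every sample label names HT1080.

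Proteins of this family are built from repeats of the gelsolin domain and bind actin filaments, most of them under the control of calcium and phosphoinositides. Gelsolin and scinderin cut filaments and then cap the fast-growing end, which shortens filaments and frees new ends. CAPG caps without cutting, villin, which also cuts, and advillin can bundle filaments, and the larger supervillin and flightless join gelsolin repeats to other domains that bind membranes, myosin or signalling partners. Scinderin is best known from secretory cells, where it is thought to loosen the cortical actin below the membrane, and gelsolin is widespread in fibroblast-like cells.

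Library totals lay between 17919106 and 20475280 counts. Knockout replicate 3 stood apart from the rest. Levels are given as CPM, the counts of a gene per 1000000 counts of its library after scaling. Over 6456 genes above a mean log2 CPM of 4, the SD of the log2 difference was 0.24 between knockout replicates 1 and 2 and 0.27 to 0.33 within WT, but 0.64 and 0.62 between knockout replicate 3 and its own group. No pair of libraries agreed within sampling noise. The TOP3B transcript was at 30.5, 19.1 and 23.1 CPM in WT and 20.02, 19.3 and 18.5 CPM in the knockout, with overlapping groups (adjusted p = 0.342 by edgeR's quasi-likelihood test). A gene-level count does not check a small edit in an exon. Of the fixed markers of the labelled line, VIM was at 11310 CPM or more in each library, whereas COL1A2 was below 1 CPM throughout and THY1 had 0 counts in 5 of 6 libraries.

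SCIN was a clearly measured transcript in WT and stood at the edge of detection in the knockout. It lies on the plus strand of chromosome 7 from 12570577 to 12660179 (GENCODE v29, GRCh38). The 3 WT libraries held 321, 342 and 402 counts, and the knockout libraries 1, 2 and 0. In CPM over scaled library sizes, WT was at 18.3, 17.3 and 19.8 and the knockout at 0.0492, 0.101 and 0. The WT libraries were alike and all lay far above the knockout libraries. Their exact binomial 95% intervals, in CPM of the unscaled library total, were 16.01 to 19.98, 15.02 to 18.6 and 17.8 to 21.6, and each overlapped with the other two. The upper bounds of the same intervals in knockout replicates 1, 2 and 3 were 0.274, 0.364 and 0.199 CPM. By the simpler limit of 3 counts, the 0 in knockout replicate 3 allows up to 0.162 CPM. Intervals and limits cover counting error only. Over the groups 1065 counts stood against 3, a ratio of 368 (95% exact binomial interval 126 to 1788), and 0.271% of the WT mean was left in the knockout. The interval of this ratio pools the counts of each group and leaves out variation between libraries. SCIN was chosen for these values, so the interval is no test. In bulk RNA, fewer cells with the transcript and less of it per cell cannot be told apart.

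SCIN was a gene of middle abundance in WT, where its mean CPM was at or above that of 56.4% of the 13965 genes tested. In the knockout it was at or above 0.107% of them. It entered the test through its WT libraries alone. Of 7227 genes with at least 10 CPM in each WT library, SCIN was the 1 gene at or below 0.2 CPM in each knockout library. These limits were set with its values known and give a description. Among all genes tested its fitted fall ranked 6th in size.

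**Figure D1:**
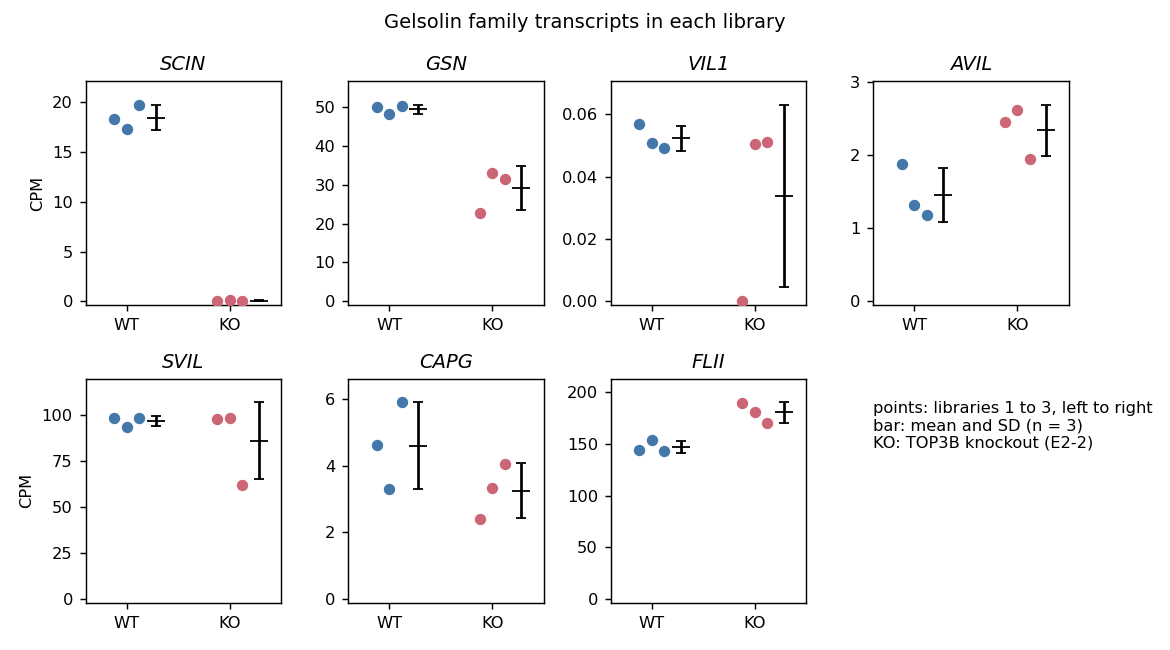
CPM (vertical axis, linear from 0) of the 7 family genes in each library, with WT in blue and the TOP3B knockout (KO) in red, and the mean and SD of 3 libraries beside them. SCIN drops from 17.3 to 19.8 CPM to at most 0.101 CPM, GSN is lower in all 3 knockout libraries, AVIL and FLII are higher in all 3, and SVIL is low in 1 knockout library only.

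The windows before the RefSeq transcription start show the sequence at the starts of SCIN, the gene near 0 in the knockout, and of its relatives AVIL and FLII. Of the 7 genes, 6 had RefSeq promoter entries (GRCh38.p14), with 17 start windows, and these 3 had a single start each. The 250 bases before each start are printed 5′ to 3′ on the gene's strand, with each CpG dinucleotide in capitals. They span chr7:12570470-12570719 (plus strand) for SCIN, chr12:57818735-57818984 (minus strand) for AVIL and chr17:18258739-18258988 (minus strand) for FLII. RefSeq and GENCODE starts differ. GENCODE v29 begins SCIN at 12570577 and FLII at 18258916, inside these stretches, so part of each lies within the gene as GENCODE annotates it. It begins AVIL at 57818704, outside the AVIL stretch.
SCIN: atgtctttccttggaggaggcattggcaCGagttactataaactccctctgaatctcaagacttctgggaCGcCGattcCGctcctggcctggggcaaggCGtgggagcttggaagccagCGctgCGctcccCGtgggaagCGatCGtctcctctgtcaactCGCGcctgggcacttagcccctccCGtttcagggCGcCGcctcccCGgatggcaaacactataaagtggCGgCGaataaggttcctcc
AVIL: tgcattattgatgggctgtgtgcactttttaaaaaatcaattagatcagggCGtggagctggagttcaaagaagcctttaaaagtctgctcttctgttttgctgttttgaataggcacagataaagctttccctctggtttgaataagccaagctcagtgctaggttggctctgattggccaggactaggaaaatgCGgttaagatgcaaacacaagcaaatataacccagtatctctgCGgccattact
FLII: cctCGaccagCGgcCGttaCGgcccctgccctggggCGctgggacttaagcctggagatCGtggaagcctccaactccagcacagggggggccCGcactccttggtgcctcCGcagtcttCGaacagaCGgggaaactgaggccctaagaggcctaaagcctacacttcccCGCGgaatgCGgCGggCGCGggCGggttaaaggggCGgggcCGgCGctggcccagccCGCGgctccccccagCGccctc
These stretches hold 18 CpG in SCIN, 3 in AVIL and 23 in FLII. Over the whole window of 300 bases (250 before to 50 after the start) the numbers were 23, 3 and 33, against a median of 14 in 35116 RefSeq windows. At least 23 CpG were present in 35.8% of all windows, so the SCIN window was CpG-rich without being unusual. AVIL was at the other end, with 81.8% of windows holding at least as many.

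The SCIN window held the motif TATAAA at 214 and 29 bases before the RefSeq start on its own strand. The motif, searched on both strands, occurred in 11.5% of all windows. Among the other 16 windows of the family it was found in 1 of the 6 GSN starts, on the opposite strand. The CArG box, the sequence to which serum response factor binds, was in 1 of the 4 SVIL windows and in 1.29% of all windows. A match describes letters in a window and not a bound site, and methylation or binding was not measured in these samples.

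Few genes around SCIN were measured, and none of them passed the test. Of 18 other annotated genes within 1 Mb, 3 had any counts. Of these 3, 0 passed with edgeR, 0 with DESeq2 and 0 at an unadjusted p under 0.05. Over all genes tested edgeR called 7.84%, so 0 of 3 says little about this region. VWDE, a secreted protein with a von Willebrand factor D domain, lies 167 kb before SCIN. It was at 2.11, 4.41 and 1.33 CPM in WT and 8.17, 3.78 and 4.81 CPM in the knockout, with an edgeR adjusted p of 0.243. TMEM106B, a lysosomal membrane protein 327 kb before SCIN, ranged from 5.48 to 20.3 CPM in WT and from 5.22 to 18.0 CPM in the knockout, with a log2 fold change of -0.26 ± 0.60 (SE; edgeR adjusted p = 0.821). Both of these varied widely between libraries of 1 group.

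**Figure D2:**
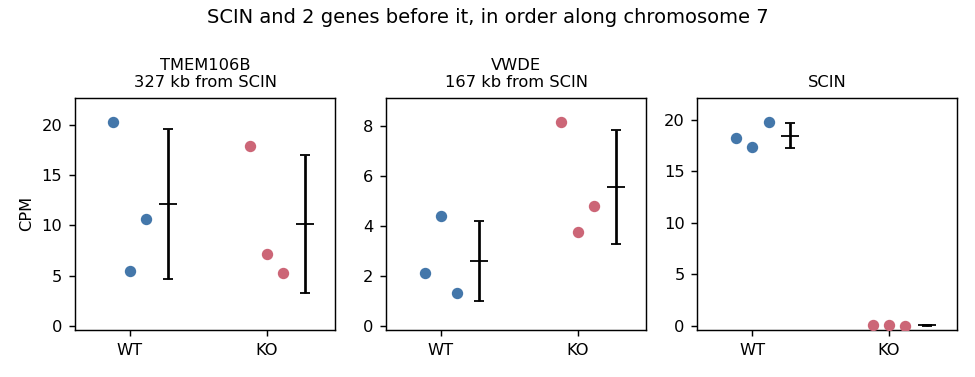
CPM (linear axis from 0) of TMEM106B, VWDE and SCIN, in chromosomal order, in 3 WT (blue) and 3 TOP3B knockout (KO, red) libraries with mean and SD. Of these 3 genes SCIN alone has separate groups, with the knockout near 0, while TMEM106B and VWDE keep 3.78 CPM or more in each knockout library.

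Gelsolin, which like scinderin cuts filaments, was also lower in the knockout, by a far smaller amount. GSN lies on the plus strand of chromosome 9 from 121207794 to 121332843. It was at 50.1, 48.1 and 50.1 CPM in WT and 22.6, 33.0 and 31.5 CPM in the knockout. Each knockout library lay below each WT library, and knockout replicate 1 was lowest. The mean went from 49.4 ± 1.17 to 29.1 ± 5.62 CPM (SD, n = 3 each), a log2 fold change of -0.77 ± 0.17 (SE) or 1.70-fold, which passed the test (edgeR quasi-likelihood test with Benjamini-Hochberg adjustment over all genes, adjusted p = 0.0396). Over all genes tested 7.84% passed, 3.21% with higher and 4.63% with lower levels. The direction held in all 15 alternatives, but the call was lost in 8 of them, with adjusted p-values from 0.000559 (DESeq2) to 0.131. It remained in 1 of 6 fits without 1 library, that without knockout replicate 3 (adjusted p = 0.0294), and the highest value was that without WT replicate 3. GSN-AS1, an RNA gene on the opposite strand within GSN, was at 1.06 to 1.52 CPM in WT and 1.41 to 3.43 CPM in the knockout and did not pass (edgeR adjusted p = 0.419). The fixed markers of fibroblast-like cells, which also express gelsolin, summed to 22562 to 23957 CPM in WT and 13965 to 15277 CPM in the knockout. FN1 carried the fall of this sum, at 11214 to 12630 CPM in WT and 2466 to 3561 CPM in the knockout. VIM, the other large part, was level, at 11310 to 12352 CPM in WT and 11373 to 11712 CPM in the knockout. COL1A1 also fell, from 5.80 to 6.66 CPM in WT to 0.787 to 1.79 CPM in the knockout, and adds little to the sum. The part of these markers in the GSN result was not tested.

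FLII was the most abundant member and was higher in each knockout library, without passing the test. Flightless is a conserved protein that adds leucine-rich repeats to gelsolin repeats and acts in the cytoskeleton and as a cofactor of nuclear receptors. The gene is on the minus strand of chromosome 17 from 18244836 to 18258916. It was at 144, 153 and 143 CPM in WT and 190, 181 and 170 CPM in the knockout. The groups did not overlap. The means were 147 ± 5.92 and 180 ± 9.80 CPM (SD, n = 3 each), and the log2 fold change of 0.30 ± 0.09 (SE) missed the threshold (edgeR adjusted p = 0.0879). It passed in 5 of the 15 alternatives, which were DESeq2 (adjusted p = 0.0266), library size alone (0.0390), both fits of deposited RPKM and the fit without knockout replicate 3 (0.0245). The adjusted p ranged up to 0.258 over the alternatives.

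AVIL, named for its likeness to villin and known from sensory neurons, was low in this line and higher in each knockout library. AVIL is on chromosome 12, minus strand, from 57797376 to 57818704. WT libraries held 33, 26 and 24 counts (1.88, 1.32 and 1.18 CPM). Knockout libraries held 50, 52 and 38 (2.46, 2.62 and 1.94 CPM). The lowest knockout library exceeded the highest WT library by a narrow margin. The log2 fold change was 0.68 ± 0.33 (SE), with an edgeR adjusted p of 0.256, and missed the threshold. AVIL overlaps TSFM, a mitochondrial translation factor gene on the opposite strand with 3159 counts in WT and 3597 in the knockout. The kit keeps strand per the labels, but no source used here says whether the counting did, so AVIL counts are uncertain. The 5 sensory neuron and neuroendocrine markers summed to 2.99 to 5.56 CPM in WT and 3.68 to 9.36 CPM in the knockout, with CHGA at 0 counts in all 6 libraries. SYP made up most of this, at 2.89 to 3.94 CPM in WT and 3.47 to 8.95 CPM in the knockout. The part of these markers in the AVIL values was not tested.

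SVIL, which ties actin and myosin II to membranes, was steady in 5 of 6 libraries. The gene is the longest of the family and runs from 29457338 to 29736781 on the minus strand of chromosome 10. It was at 98.5, 93.4 and 98.2 CPM in WT and 97.9, 98.0 and 62.0 CPM in the knockout. Knockout replicates 1 and 2 lay within the WT range, and knockout replicate 3, the library that stands apart over all genes, lay below. The log2 fold change was -0.17 ± 0.18 (SE; edgeR adjusted p = 0.609), and 0.0096 without knockout replicate 3. SVIL-AS1, annotated as a transcribed pseudogene on the opposite strand, was at 4.36 to 5.24 CPM in WT and 3.22 to 3.57 CPM in the knockout, and did not pass (edgeR adjusted p = 0.244).

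CAPG, the calcium-dependent capping protein first described in macrophages, was low and variable. CAPG is on chromosome 2, minus strand, from 85394748 to 85418432. WT libraries held 81, 65 and 120 counts (4.61, 3.30 and 5.90 CPM). Knockout libraries held 49, 66 and 79 (2.41, 3.32 and 4.04 CPM). The groups overlapped. The log2 fold change, -0.50 ± 0.33 (SE), had an edgeR adjusted p of 0.395. The 6 measured leukocyte and macrophage markers summed to 16.5 to 19.5 CPM in WT and 5.41 to 13.4 CPM in the knockout. CD68, at 9.64 to 14.7 CPM in WT and 3.39 to 13.05 CPM in the knockout, made up most of this. CSF1R was at 3.99 to 6.001 CPM in WT and 0.307 to 1.62 CPM in the knockout. The groups overlapped for CD68 and not for CSF1R, and no marker of this list passed the test. LYZ had 0 counts and PTPRC was below 0.5 CPM in each library. The part of these markers in the CAPG values was not tested. VIL1, the villin of intestinal microvilli on chromosome 2 from 218419092 to 218453295, had 1 count in each library except knockout replicate 1, which had 0. USP37, a deubiquitinase gene on the opposite strand that overlaps VIL1, reached 1158 counts over the WT libraries against 1720 over the knockout libraries. VIL1 was below the filter on low counts and is not compared. The 8 epithelial markers summed to 106 to 118 CPM in WT and 109 to 130 CPM in the knockout. KRT8, at 82.4 to 99.9 CPM, and KRT18, at 14.4 to 34.8 CPM, made up most of this, CDH1 was at 1.36 to 2.43 CPM, and KRT20 and CDX2 had 0 counts in all 6 libraries.

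**Figure D3:**
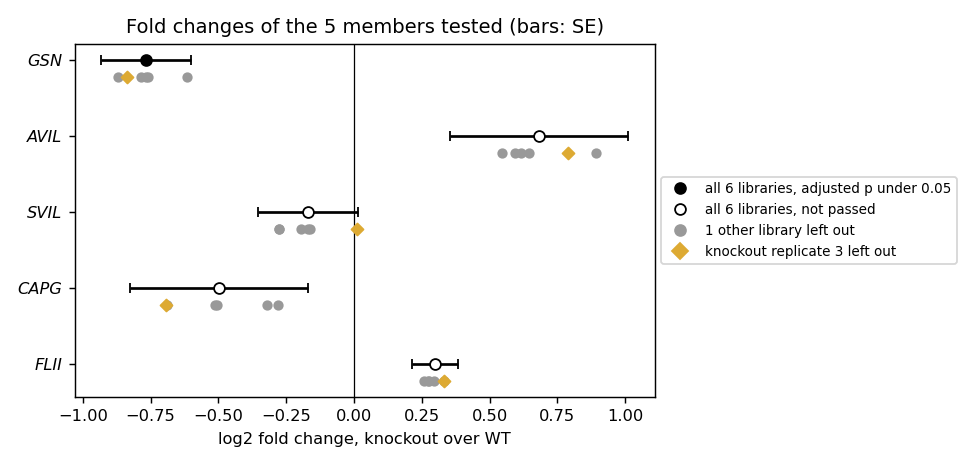
Log2 fold change of knockout over WT (horizontal axis) for the 5 members tested other than SCIN, with the SE of the fit on all 6 libraries, and the values with 1 library left out beneath. GSN lies below 0 and AVIL and FLII above 0 in every fit shown, and SVIL moves to 0.0096 when knockout replicate 3 is left out.

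Thus 1 of the 5 tested members other than SCIN passed, GSN, which was lower, and 4 did not. Groups of libraries did not overlap in 3 of the 5 (GSN, AVIL and FLII), where 33.6% of all genes tested had groups that did not overlap. The median log2 fold change of the 5 was -0.17, against 0.05 over all genes tested. VIL1 was not tested. Directions of the 5 were the same under TMM, DESeq2 size factors, upper quartile scaling and library size alone. The median of all genes tested was 0.11 under library size alone.

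Per length, FLII led the family and VIL1 was last in WT, but the order between them depended on the length used. The length behind the deposited RPKM is not stated. Worked back from the counts and the RPKM, it was for most members close to the genomic span, introns included, averaged over annotated transcripts. For SCIN this length was 37539 bases and the mean annotated span 37490 bases, and for FLII 4098 and 4105 bases. The values were farther apart for AVIL (8868 and 7426 bases) and SVIL (88721 and 70785 bases). In deposited RPKM, WT levels were 35.0 ± 0.983 for FLII, 1.1004 ± 0.0399 for GSN, 1.07 ± 0.0443 for SVIL, 0.482 ± 0.0389 for SCIN, 0.361 ± 0.108 for CAPG, 0.161 ± 0.0388 for AVIL and 0.00300 ± 0.000234 for VIL1 (SD, n = 3). The ranges of GSN and SVIL overlapped, as did those of SCIN and CAPG. Per kilobase of summed exon length, 11623 bases for SCIN and 6465 for FLII, the WT levels in CPM per kilobase were 22.7 ± 0.916 for FLII, 9.73 ± 0.285 for SVIL, 4.48 ± 0.106 for GSN, 1.77 ± 0.500 for CAPG, 1.59 ± 0.106 for SCIN, 0.248 ± 0.0628 for AVIL and 0.00755 ± 0.000594 for VIL1 (SD, n = 3). CAPG and SCIN overlapped. Of the 7 ranks, 3 were the same on both scales.

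On the exon scale, SCIN made up 3.69% to 4.18% of the summed level of the 7 genes in the WT libraries and at most 0.0203% in the knockout libraries. GSN took 10.8% to 11.3% in WT and 4.82% to 7.67% in the knockout, and FLII 54.2% to 58.6% and 65.7% to 70.5%. In deposited RPKM the shares were 1.14% to 1.38% in WT and at most 0.00577% in the knockout for SCIN, 2.70% to 2.98% and 1.06% to 1.65% for GSN, and 91.1% to 92.5% and 94.8% to 95.7% for FLII. In the knockout SCIN was last on both scales, level with VIL1, whose library range overlapped with its own. SVIL was next after FLII on the exon scale in both groups, with 23.2% to 24.6% in WT and 16.7% to 23.2% in the knockout, lowest in knockout replicate 3.

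**Figure D4:**
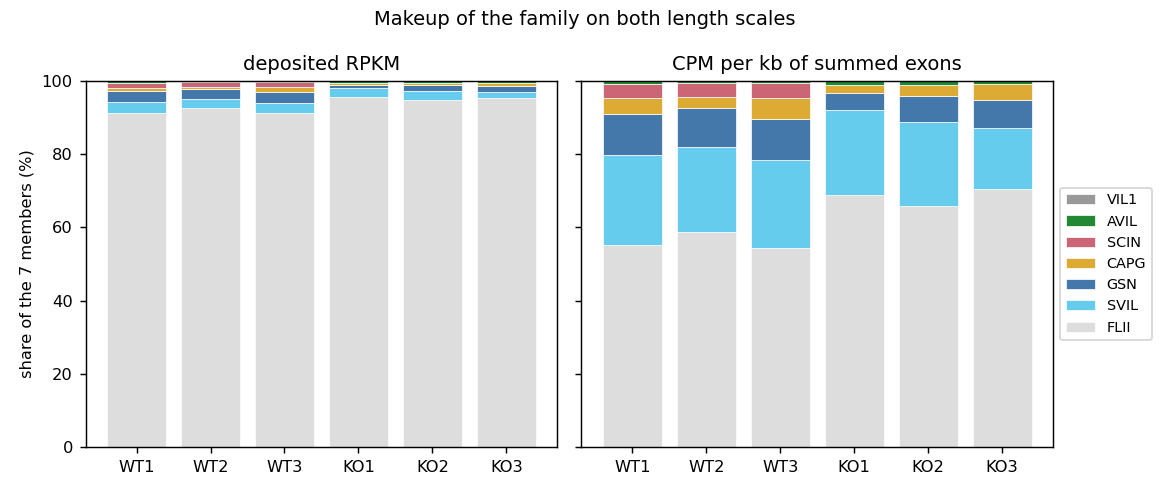
Share of each gene in the summed level of the 7 family members (vertical axis, percent), by library, from deposited RPKM (left) and from CPM per kilobase of summed exon length (right), with WT and knockout (KO) libraries 1 to 3. FLII holds most of both, and on the right the SCIN segment of 3.69% to 4.18% in WT has no visible counterpart in the knockout.

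The genes whose distribution over the 6 libraries was most like that of SCIN were found among 11408 others with a mean of at least 2 CPM, by the distance between their library shares of summed CPM. They were CNTN1, ACOT2, ZNF225-AS1, CALB2 and GASK1B, in that order. CNTN1, the neuronal adhesion protein contactin 1, had distance 0.0308 and 667 counts in WT against 20 in the knockout. CALB2, the calcium-binding calretinin, had distance 0.0352 and 285 counts against 9. The distances describe likeness over 6 libraries in 2 groups. They were selected for the same contrast as SCIN and carry no test. With a minimum of 1 CPM the same 5 genes were found.

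Other actin regulators were read from 6 lists, by role, with 101 genes tested. Of these 6 rose and 13 fell, or 18.8%, beside 7.84% of all genes tested, and the median log2 fold change was -0.05. That difference in share was not tested. The lists were chosen with earlier results of these data known, so it cannot be read as an excess among actin regulators. Apart from the genes chosen by rule, those named below were chosen because they passed, and VILL for its likeness to villin.

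The list of severing and depolymerisation held 22 tested genes, of which 1 rose and 4 fell, while 17 missed the threshold. Their median log2 fold change was -0.13. LIMK2, a kinase that inactivates the severing protein cofilin, averaged 71.9 ± 3.37 CPM in WT and 32.1 ± 3.30 CPM in the knockout (SD, n = 3 each), a 2.24-fold fall (edgeR adjusted p = 0.00503). SSH3, of the slingshot phosphatases that reactivate cofilin, rose 1.99-fold from 8.19 ± 1.09 to 16.4 ± 3.61 CPM, whereas its relative SSH1 fell 1.36-fold. CAP2, which recycles actin monomers, fell 2.03-fold and MICAL1, which oxidises filaments and so takes them apart, fell 1.79-fold. LIMK2 passed with each library left out, CAP2 and MICAL1 in 2 of the 6 such fits, and SSH1 and SSH3 in 1. VILL, the villin-like gene closest to this family, was at 1.52 to 3.25 CPM in WT and 1.13 to 3.15 CPM in the knockout and did not pass (edgeR adjusted p = 0.888).

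Among 15 capping genes 3 rose, 1 fell and 11 missed the threshold (median 0.22). EPS8L2, a relative of the barbed-end capper EPS8, averaged 71.4 ± 8.35 CPM in WT and 134 ± 13.2 CPM in the knockout (SD, n = 3 each), a 1.88-fold rise (edgeR adjusted p = 0.0110). CD2AP, an adaptor that binds capping protein, fell 1.56-fold from 334 ± 14.5 to 213 ± 15.2 CPM. ADD2, an adducin that caps and links filaments to spectrin, rose 1.38-fold. CARMIL2, an inhibitor of capping protein, rose from 0.874 ± 0.230 to 5.23 ± 3.20 CPM. EPS8L2 and CD2AP passed in 4 of the 6 fits without 1 library, CARMIL2 in 2 and ADD2 in 1.

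Among 11 actins, monomer binders and tropomyosins, TPM1 and PFN2 fell and 9 did not pass, with a median of -0.31. TPM1, a tropomyosin that lies along filaments and shields them from severing, averaged 2386 ± 192 CPM in WT and 1431 ± 105 CPM in the knockout (SD, n = 3 each), a 1.67-fold fall (edgeR adjusted p = 0.00804), and passed with each library left out. PFN2, a profilin that delivers monomers, fell 1.73-fold from 642 ± 34.5 to 371 ± 62.3 CPM and passed in 2 of these 6 fits.

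The 30 genes of nucleation and elongation included 2 that rose and 6 that fell, and 22 missed the threshold (median -0.15). DAAM2, a formin of Wnt signalling, averaged 2.93 ± 0.596 CPM in WT and 9.90 ± 1.76 CPM in the knockout (SD, n = 3 each), a 3.38-fold rise (edgeR adjusted p = 0.0117), and SPIRE2, a nucleator, rose 1.58-fold. ENAH, which keeps filament ends growing, fell 2.34-fold from 231 ± 7.65 to 98.4 ± 25.01 CPM. The formin FHOD3 fell 1.94-fold and FMNL3 1.32-fold. The Arp2/3 subunits ARPC5 and ARPC4 fell 1.51-fold and 1.54-fold, and WASF1, which activates that complex, fell 1.43-fold. FHOD3 passed in all 6 fits without 1 library, ARPC5 in 5, DAAM2 in 4, ENAH in 2, and ARPC4, WASF1, FMNL3 and SPIRE2 in 1.

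By edgeR 0 of the 14 genes of bundling and membrane linkage passed (median -0.01), and 0 of the 9 partners of flightless and supervillin (median -0.05). At an unadjusted p under 0.05 these numbers were 1 and 3, with DESeq2 1 (MYO7B, higher) and 1 (EPHB2, lower), and with limma-voom 0 and 0. Without knockout replicate 3, edgeR called 1 higher and 1 lower of 14 bundling genes, and 3 higher and 1 lower of 10 partners. ACTN1, the bundling alpha-actinin 1, was at 2562 ± 196 and 2306 ± 82.2 CPM (SD, n = 3 each). LRRFIP1, which binds the leucine-rich repeats of flightless, was at 608 ± 20.04 and 601 ± 62.2 CPM, beside the FLII values above.

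**Figure D5:**
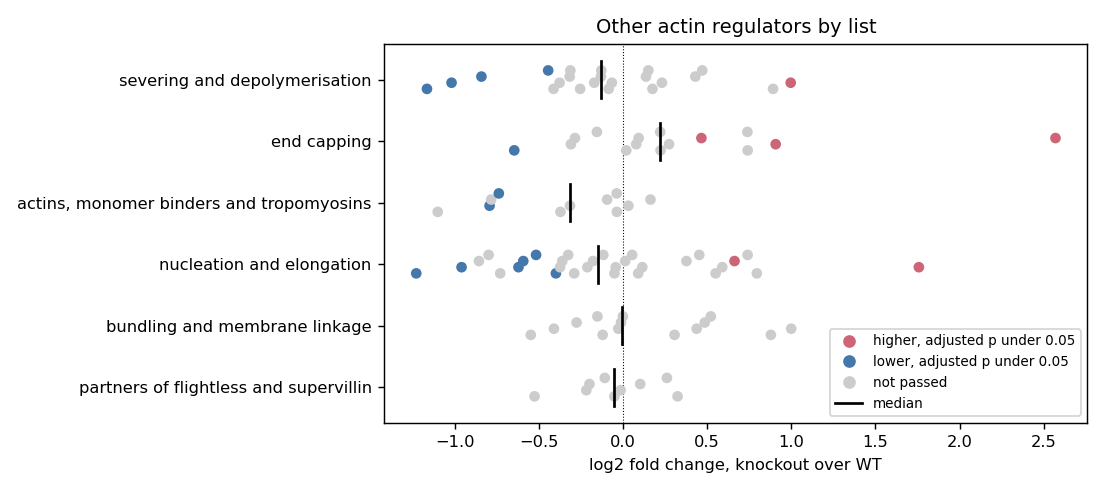
Log2 fold change of knockout over WT (horizontal axis) for 101 actin regulators on 6 lists, with genes that rose in red, genes that fell in blue, the rest in grey and each list's median as a bar. The falls reach -1.23 (ENAH), the rises 2.57 (CARMIL2), and neither of the 2 lists at the bottom holds a called gene.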

How the data were processed

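Total RNA of 6 HT1080 libraries was measured. The authors deposited 1 table of estimated counts per gene, rounded to whole numbers and not scaled, and 1 of RPKM; per the submitters' processing notes, Salmon 1.10.1 and hg19 are named, each with no stated role. Gene lengths behind the deposited RPKM and any use of strand are not given in the sources used here. Of 35820 genes, 1 was named differently in the tables and left out. Positions are from GENCODE v29 on GRCh38, matched by symbol, and no hg19 position is used.

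Counts were filtered with filterByExpr, scaled by TMM and tested with edgeR 4.0.16 (quasi-likelihood F test, group as the only term; R 4.3.3). The p-values of all 13965 genes were adjusted together by Benjamini-Hochberg, and 0.05 was the threshold. SEs were derived from the F statistic. CPM uses TMM-scaled library sizes. The test was checked on simulated counts in which 200 genes were changed. No simulated library was made to stand apart as knockout replicate 3 does, so the check does not cover that feature. Depth is the total count per library. The members and gene lists were chosen with earlier results of these data known. Named genes were TOP3B, the members, measured genes within 1 Mb of SCIN (1 of which is not reported here), the 5 profiles nearest to SCIN, and in each list every call if 3 or fewer, otherwise the largest rise and fall at a mean of 5 CPM or more, or with no call the most abundant gene. Alternatives were DESeq2 1.42.0, limma 3.58.1 (voom, and trend on log2 RPKM plus 1 or 0.1), 3 other scalings, 2 other filters and each library left out. Knockout replicates are numbered in order of deposition.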

Additional observations from a re-analysis of the deposited data

How the results depend on the processing

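No paired analysis was possible because the knockout labels carry no replicate numbers. The number of genes called, 1095 in all, was 2199 with DESeq2 and 223 to 1899 with 1 library left out. Leaving out WT replicate 1, 2 or 3 gave 279, 223 or 256, and knockout replicate 1, 2 or 3 gave 388, 359 or 1899. Of the members other than SCIN, 1 was called, 2 with DESeq2, and 0 to 2 with 1 library left out. Only the fit that left out knockout replicate 3 gave 2 (GSN and FLII), and the other 5 gave 0. With deposited RPKM, or library size alone, the 1 call was FLII in place of GSN. The log2 fold change of SVIL lay between -0.28 and 0.0096 with 1 library left out, the latter without knockout replicate 3. Calls on the lists, with 1 library left out, ranged from 1 to 4 lower for severing and from 1 to 8 lower for nucleation (9 with DESeq2). For bundling and for the partners they were 0 in 5 of these 6 fits, and without knockout replicate 3 they were 1 higher and 1 lower, and 3 higher and 1 lower. The fitted value of SCIN, -8.35, was -0.57 on log2(RPKM + 1) and -2.52 on log2(RPKM + 0.1), where the pseudocount limits the size of a fall, and -9.20 to -7.84 with 1 library left out. GSN, AVIL, CAPG and FLII kept their direction in all 15 alternatives, and AVIL, SVIL and CAPG passed in none. Depth limits AVIL and VIL1, whose counts per library were at most 52 and 1.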

Other observations

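The spread within a group went beyond counting error for some members and not for others. In WT the coefficient of variation of CPM was 2.37% for GSN, 2.93% for SVIL, 4.04% for FLII and 6.65% for SCIN, where counting alone gives 3.25%, 2.32%, 1.88% and 5.31%. In the knockout it was 19.3% for GSN and 24.2% for SVIL, where counting gives 4.16% and 2.41%. The low GSN library was knockout replicate 1, at 22.6 CPM, and the low SVIL library was knockout replicate 3, at 62.0 CPM, so the spread of these 2 genes did not come from the same library. CAPG varied by 28.3% in WT and 25.1% in the knockout, where counting gives 10.6% and 12.4%.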
